A study of Homo sapiens with 6 samples.

Results

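Collagens, laminins and integrins are the structural proteins of the extracellular matrix and the receptors that cells use to hold on to it. They were followed here in EndoC-βH1 cells (EndoCBH1 in the labels), an immortalized human beta cell line made from fetal pancreas. The members are all rows of the deposited table whose gene symbol belongs to a collagen alpha chain (COL), a laminin alpha, beta or gamma chain (LAMA, LAMB, LAMC) or an integrin alpha or beta subunit (ITGA, ITGB). The rule found 37 of 16792 genes, namely 17 collagens, 8 laminins, 9 integrin alpha subunits and 3 integrin beta subunits. RefSeq lists 82 protein-coding genes with such symbols, and the other genes were not analysed here. The treatment was siRNA against the homeobox factor MNX1 in 3 libraries (siMNX1, genotype MNX1 knock down in the labels), and in the other 3 the control treatment siNT (WT in the labels), read here as a non-targeting siRNA. All 6 libraries come from this single line, so the groups share its genotype apart from the siRNA. The study's title concerns genes that MNX1 represses in human beta cells, and the comparison below asks how the matrix and its receptors differed after MNX1 siRNA.

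Collagens are triple helices of 3 alpha chains, and type IV collagen forms the sheet of the basement membrane. Laminins are heterotrimers of an alpha, a beta and a gamma chain that form the other basement membrane network. Integrins are heterodimers of an alpha and a beta subunit that span the plasma membrane, bind these ligands outside the cell and connect to actin inside it. In the islet, beta cells rest on the basement membrane of the capillaries, and laminin contact through integrins that contain ITGB1 is known to bear on insulin secretion and survival.

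Values are the authors' normalized counts, which are scaled between libraries and not divided by gene length. Deposited totals ran from 18406479 to 18704645, which follows the normalization, so the sequencing depth is unknown and no counting interval is given. Wherever 3 values of a group are given, they follow replicates 1 to 3. For the targeted gene MNX1 the siNT libraries read 2039, 2033 and 1988 and the siMNX1 libraries 1885, 1708 and 1751. Every siMNX1 library was thus below every siNT library, but limma made no call (log2 fold change -0.18, adjusted p = 0.116). All 10 of 10 beta cell markers looked for were among the genes, with a summed level of 139882 to 150419 in siNT and 154603 to 165527 in siMNX1, most of it INS. Of these 10, MAFA and PCSK1 were called higher and IAPP lower (limma log2 fold changes 0.56, 0.40 and -1.84, adjusted p = 0.0131, 0.0216 and 0.0123), and their part in the results below was not tested. These calls ended for MAFA without siNT replicate 2 or 3 or siMNX1 replicate 1 (limma, adjusted p up to 0.0699), for PCSK1 without siNT replicate 1, 2 or 3 or siMNX1 replicate 1 (up to 0.108), and for IAPP without siNT replicate 1 or 2 (up to 0.0671). At an unadjusted p under 0.05 (limma), 4 of the 10 were higher and 1 was lower. Of all genes, 3.32% were called (1.99% higher and 1.33% lower). At the unadjusted threshold 9.81% of all genes were higher and 8.56% lower. Of 12 mesenchymal markers that are no members, 3 were found (PDGFRB, RGS5 and TAGLN), summing to 135 to 181 in siNT and 127 to 212 in siMNX1. Endothelial (1 of 9), immune (1 of 8), ductal (2 of 6), acinar (1 of 6) and Schwann or neural (1 of 5) markers were few as well, and limma called 0 of these and the mesenchymal markers (1 was higher and 2 were lower at an unadjusted p under 0.05). Some of the markers found were not low. The immune marker CD68 had 1468 ± 103 in siNT and 1280.1 ± 139.8 in siMNX1, and the acinar marker CPA1 591 ± 43.0 and 585 ± 10.4. The ductal marker KRT19 had 1199 ± 84.7 and 1367 ± 48.7, each siMNX1 library above each siNT library (limma log2 fold change 0.19, adjusted p = 0.169). The single endothelial marker ESAM ran from 175 to 195 in siNT and from 142 to 158 in siMNX1. The part of these markers in the results below was not tested. In such bulk libraries, fewer cells of a type and less RNA per cell cannot be told apart. The labels do not say whether the replicates were separate cultures, so p-values measure the spread between these libraries, which may be technical.

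A fold change here is the difference of group means of log2(value + 1), siMNX1 minus siNT, and a gene was called at an adjusted p of at most 0.05 by limma over all 16792 genes. Of the 37 members 3 were called, ITGB8 and COL9A2 higher and LAMA5 lower. That is 8.11% of the members, where 3.32% of all genes were called (1.99% higher and 1.33% lower). The groups did not overlap for 10 members (27.0%), 5 in each direction, against 24.0% of all genes (12.0% higher and 12.1% lower). At an unadjusted p under 0.05 there were 10 members (27.0%), again 5 in each direction (13.5% each), against 18.4% of all genes (9.81% higher and 8.56% lower). Called with at least a 1.5-fold change were ITGB8 and COL9A2 (5.41%), against 1.23% of all genes. A fold change above 0 was seen in 20 members (54.1%), against 49.9% of all genes. The median log2 fold change of the members was 0.08, with the interquartile range running from -0.19 to 0.22, beside 0.00 and -0.12 to 0.14 for all genes. The members thus did not share a direction, and the 2 higher and 1 lower calls lay in different families.

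**Figure D1:**
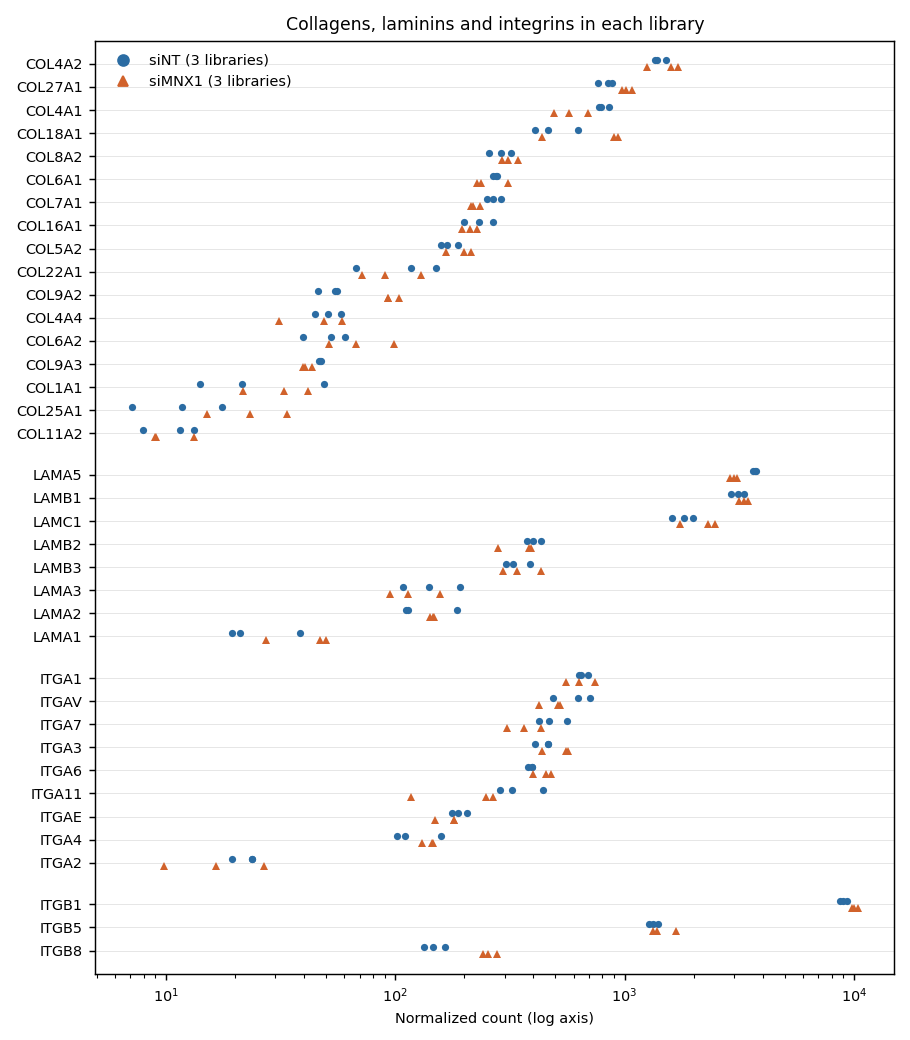
Normalized counts (x axis, log scale) of the 37 members (y axis, by family and siNT level) in each of the 3 siNT libraries (circles) and 3 siMNX1 libraries (triangles). The groups stand clear of each other for COL9A2 (45.9 to 55.9 against 92.6 to 104), ITGB8 (133 to 165 against 241 to 278) and LAMA5 (3647 to 3733 against 2874 to 3094), while most other members overlap or lie close together.

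**Figure D2:**
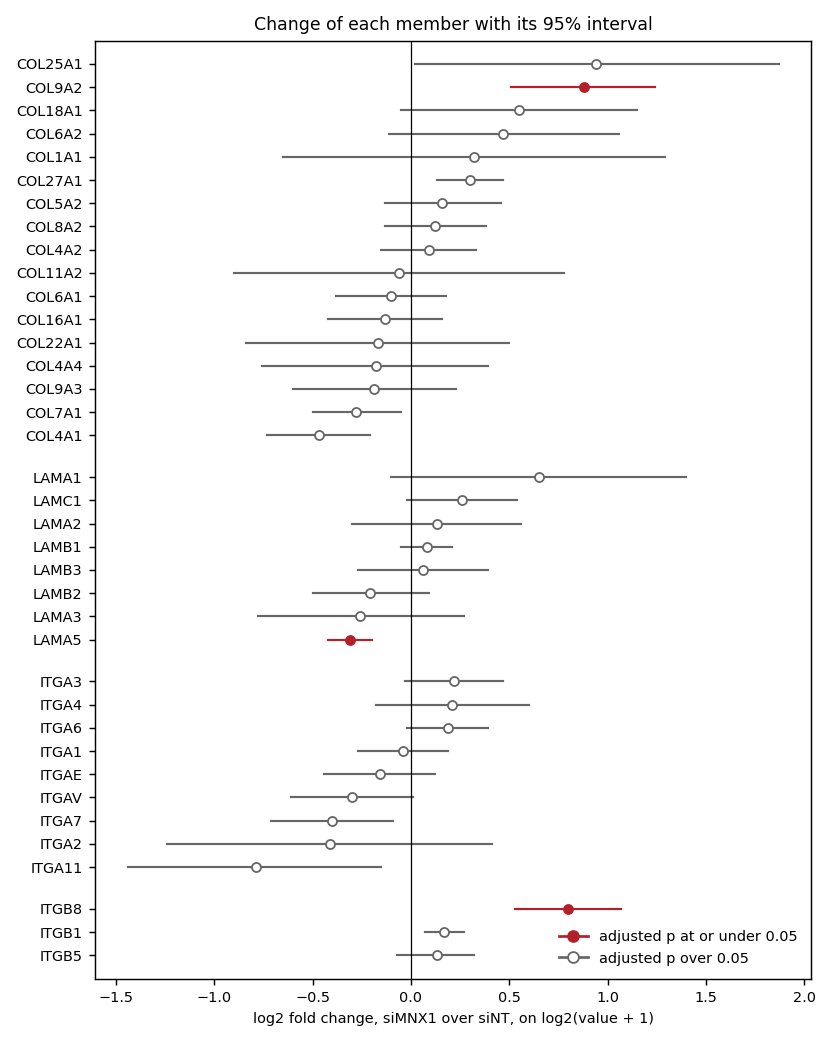
Log2 fold change of each member (x axis, siMNX1 over siNT, on log2(value + 1)) with its 95% interval from limma, by family. Filled red points mark the 3 members called, and the open points include wide intervals for low members such as COL25A1 (0.02 to 1.87) and COL1A1 (-0.65 to 1.29).

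The sequences just before the RefSeq starts of the 3 called genes, and between those of COL4A1 and COL4A2, are shown because MNX1 is a DNA-binding factor. The last interval was added because it lies between a pair of partner genes whose fold changes had opposite signs. Neither gene was called (limma, adjusted p = 0.0611 for COL4A1 and 0.712 for COL4A2). The sign of COL4A2 turned without siMNX1 replicate 3. All sequences are RefSeq's (GRCh38.p14), 250 bases before each gene's RefSeq start on the gene's own strand. For COL4A1 and COL4A2 they are the 126 bases between both RefSeq starts on the COL4A2 strand. Capitals mark the GC box GGGCGG or its reverse complement CCGCCC, and the CCAAT box CCAAT or its reverse complement ATTGG. GENCODE 29 places exons of some ITGB8 (198 bases), COL9A2 (58), COL4A1 (76) and COL4A2 (48) transcripts inside these windows, and none in that of LAMA5. By the GENCODE 29 gene bounds, the whole COL9A2 window lies inside its gene, and COL4A1 and COL4A2 overlap. In that annotation these windows are thus partly transcribed, save that of LAMA5.
ITGB8, chr7:20330650-20330899, plus strand: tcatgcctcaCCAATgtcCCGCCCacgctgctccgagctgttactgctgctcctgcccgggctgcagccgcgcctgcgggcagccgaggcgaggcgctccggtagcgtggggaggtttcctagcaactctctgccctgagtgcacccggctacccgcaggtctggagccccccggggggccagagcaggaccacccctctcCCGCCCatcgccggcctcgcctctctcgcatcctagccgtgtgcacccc
COL9A2, chr1:40317287-40317536, minus strand: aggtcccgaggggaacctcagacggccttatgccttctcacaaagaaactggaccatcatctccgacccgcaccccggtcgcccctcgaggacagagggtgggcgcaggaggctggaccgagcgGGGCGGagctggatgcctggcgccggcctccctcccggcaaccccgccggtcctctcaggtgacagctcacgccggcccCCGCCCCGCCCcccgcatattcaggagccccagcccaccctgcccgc
LAMA5, chr20:62367313-62367562, minus strand: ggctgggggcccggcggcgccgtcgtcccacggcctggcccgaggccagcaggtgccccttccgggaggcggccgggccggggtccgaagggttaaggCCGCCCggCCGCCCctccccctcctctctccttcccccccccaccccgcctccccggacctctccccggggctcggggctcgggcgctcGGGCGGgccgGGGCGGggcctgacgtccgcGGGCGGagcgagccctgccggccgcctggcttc
COL4A1 to COL4A2, chr13:110307158-110307283, plus strand: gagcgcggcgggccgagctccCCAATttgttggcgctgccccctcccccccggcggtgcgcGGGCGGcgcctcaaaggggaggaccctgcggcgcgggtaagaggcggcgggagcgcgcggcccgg
All 4 are rich in G and C, at 71.2% for ITGB8, 71.6% for COL9A2, 82.8% for LAMA5 and 80.2% between COL4A1 and COL4A2. The median over all 35116 RefSeq windows of 250 bases was 58.0%, and the 90th percentile 75.2%, which ITGB8 and COL9A2 did not reach. The interval between COL4A1 and COL4A2, at 126 bases, is shorter than those windows. The GC box occurs 2, 3, 5 and 1 times in this order, counted on both strands, and the CCAAT box once in the ITGB8 window and once between COL4A1 and COL4A2.

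Homeodomain proteins such as MNX1 bind DNA with a TAAT core, often within TAATTA. RefSeq windows were used for 29 of the 37 members, all but COL1A1, COL5A2, COL6A1, COL9A3, COL22A1, LAMA1, ITGA3 and ITGA7. COL22A1 lies on chromosome 8, whose windows were left out for the members but kept for all genes. On either strand, TAATTA was in the windows of 0 of 29 members, against 5.37% of 27305 genes. The 27305 are all genes with RefSeq windows, whether or not they were measured here, whereas every member was measured. TAAT, which is also part of TAATTA, was in those of 11 members (37.9%) against 52.7% of genes, and in none of the 4 sequences above. The GC box was in those of 21 members (72.4%) against 46.2% of genes, and the CCAAT box in those of 5 (17.2%) against 37.0%. These are matches of letters in a short window and say nothing of binding.

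Among the collagens, COL9A2 was higher and 0 of 17 were lower by limma (3 higher and 2 lower at an unadjusted p under 0.05). That is 5.88% called, against 3.32% of all genes, and the family's median log2 fold change was 0.09. COL9A2 (chromosome 1, 40300487 to 40317813, minus strand, GRCh38) encodes a chain of type IX collagen, which sits on the surface of cartilage fibrils. Its normalized counts were 55.9, 54.7 and 45.9 with siNT, and 92.8, 92.6 and 104 with siMNX1. The groups were well apart, and COL9A2 rose 1.85-fold from 52.2 ± 5.46 to 96.4 ± 6.36 (SD, n = 3; limma log2 fold change 0.88, SE 0.164, adjusted p = 0.0219). The call was kept only when siMNX1 replicate 2 was the library left out (adjusted p = 0.0478). It ended without siNT replicates 1 (0.0511), 2 (0.0657) or 3 (0.102) or siMNX1 replicates 1 (0.0693) or 3 (0.0732), while the log2 fold change stayed between 0.79 and 0.93. Its partner chain COL9A3 had 47.4, 47.2 and 46.5 against 40.5, 39.8 and 43.4, slightly lower in each siMNX1 library. The COL9A3 groups did not overlap, but its log2 fold change of -0.19 was not called (SE 0.185, limma, adjusted p = 0.642).

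Per kilobase, the type IV chain gene COL4A2 had the highest level of the collagens, with either measure of length. COL4A1 (chromosome 13, 110148963 to 110307233, minus strand) and COL4A2 (110305812 to 110513209, plus strand) lie head to head, and their chains join in the same trimer. COL4A1 had 774, 793 and 852 with siNT and 492, 696 and 574 in siMNX1. Every siMNX1 library was below every siNT library, yet the log2 fold change of -0.47 (95% interval -0.73 to -0.21) missed the threshold (limma, adjusted p = 0.0611). It passed when siMNX1 replicate 2, the highest of its group for COL4A1, was left out (limma log2 fold change -0.60, adjusted p = 0.0107). COL4A2 had 1512, 1389.7 and 1352 in siNT and 1247, 1599.8 and 1714 in siMNX1. These overlap, with a log2 fold change of 0.09 (95% interval -0.15 to 0.33, limma, adjusted p = 0.712). COL4A4, a chain of the kidney and eye basement membranes, was low at 58.2, 51.1 and 44.9 against 31.2, 48.9 and 58.8.

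Other collagens of basement membranes and their anchors had fold changes of either sign. COL18A1, whose C-terminal fragment is endostatin, had 624, 406 and 462 in siNT and 901, 437 and 938 in siMNX1. Replicate 2 was the lowest library of each group, and the groups overlapped (limma log2 fold change 0.55, adjusted p = 0.311). Without siMNX1 replicate 2 its log2 fold change was 0.91 and it was called (limma, adjusted p = 0.0181). COL18A1 shares 1401 exonic bases (16.4% of its exons) with SLC19A1 on the opposite strand, and reads of the shared bases cannot be told apart, because no source used here gives the strand setting of the counting. SLC19A1 itself had a log2 fold change of 0.15 (limma, adjusted p = 0.347). COL7A1, the anchoring fibril collagen, had 251, 268 and 288 in siNT and 218, 213 and 234 in siMNX1, without overlap and without a call (limma log2 fold change -0.28, adjusted p = 0.180).

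The fibril-forming collagens were led per kilobase by COL27A1, a fibrillar collagen of cartilage. It had 885, 847 and 764 with siNT and 1015, 1077 and 979 in siMNX1. All siMNX1 libraries were above all siNT libraries, and the log2 fold change of 0.30 (95% interval 0.13 to 0.47) missed the threshold (limma, adjusted p = 0.0622, and 0.0824 to 0.201 with a library left out). COL5A2 had 172 ± 14.6 and 193 ± 24.0. COL1A1, the main chain of fibroblast collagen, was near the floor of the table at 14.1, 48.7 and 21.4 in siNT and 32.6, 21.7 and 41.8 in siMNX1, with overlapping groups. COL11A2 was lower still at 10.9 ± 2.72 and 10.4 ± 2.43. The direction of COL1A1 turned without siNT replicate 1, and that of COL11A2 without siNT replicate 3 or siMNX1 replicates 1 or 2.

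Of the remaining collagens none was called. COL25A1, a transmembrane collagen first found in amyloid plaques, had the highest fold change of all members, but at 17.5, 7.09 and 11.8 against 33.8, 15.1 and 23.3 it was near the floor and its groups overlapped (limma log2 fold change 0.94, SE 0.413, adjusted p = 0.263). COL6A1 and COL6A2, chains of the same beaded filament, had log2 fold changes of -0.10 and 0.47, with COL6A2 at 51.0 ± 10.5 and 72.5 ± 23.8. COL8A2, of the network in Descemet's membrane, had 289 ± 32.7 and 314 ± 25.6. The fibril-associated COL16A1 and COL22A1 had log2 fold changes of -0.13 and -0.17, and that of COL22A1 turned without siNT replicate 1 or siMNX1 replicate 1.

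Among the laminins, LAMA5 was lower and 0 of 8 were higher by limma (1 lower and 0 higher at an unadjusted p under 0.05), with a family median of 0.07. The share called was 12.5%, against 3.32% of all genes. LAMA5 (chromosome 20, 62307955 to 62367312, minus strand) encodes the alpha 5 chain, the broadly expressed alpha chain of adult basement membranes. Its normalized counts were 3647, 3733 and 3725 with siNT, and 2874, 2991 and 3094 with siMNX1. Its replicates were the tightest of all members, with a within-group SD of 0.040 on the log2 scale, and the groups were far apart. LAMA5 dropped by 19.3%, from 3702 ± 47.4 to 2986 ± 110.0 (SD, n = 3; limma log2 fold change -0.31, SE 0.0477, adjusted p = 0.00922). The call ended without siNT replicate 3 (adjusted p = 0.0538) and without a variance trend (0.0796); over the alternatives tried its adjusted p ran from 0.00699 to 0.0796. LAMA5 shares 244 exonic bases (1.71% of its exons) with ADRM1 on the opposite strand, which had a log2 fold change of -0.20 (limma, adjusted p = 0.0511).

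Of the chains that assemble with LAMA5, none was called. LAMB1, the most abundant beta chain per kilobase, had 3134, 2925 and 3318 in siNT and 3145, 3439 and 3317 in siMNX1. The groups overlap (log2 fold change 0.08, 95% interval -0.05 to 0.21, limma, adjusted p = 0.530). LAMC1, the gamma chain found in most laminins and the single gamma chain among the members, had 1825, 1607 and 1995 in siNT and 2314, 2473 and 1745 in siMNX1. Only siMNX1 replicate 3 lay within the siNT range (limma log2 fold change 0.26, adjusted p = 0.312). LAMB2, the beta chain of synaptic and kidney laminins, had 402 ± 27.6 and 351 ± 62.1, and LAMB3, of the epidermal anchoring laminin, 339 ± 44.4 and 356 ± 70.1.

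The other alpha chains were low. LAMA3, the alpha chain that joins LAMB3, had 139.7, 191 and 108 in siNT and 114, 157 and 94.9 in siMNX1, and LAMA2, the alpha chain of muscle, 114, 111 and 186 against 142, 146 and 148. LAMA1, the alpha chain of the early embryo, had 19.5, 21.1 and 38.6 against 46.8, 49.8 and 27.4 (limma log2 fold change 0.65, adjusted p = 0.344). All 3 overlap between the groups. Per kilobase of the longest coding transcript, LAMA5 made up 91.4% ± 0.775 of the 4 alpha chains in siNT and 89.5% ± 1.36 in siMNX1 (SD, n = 3), so the summed alpha level followed it from 355 ± 7.38 to 292 ± 9.03 per kilobase. The 3 beta chains together had 692 ± 48.9 and 717 ± 46.5 per kilobase. LAMB3 turned direction without siNT replicate 2 or siMNX1 replicate 3, and LAMA2 without siNT replicate 2.

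Among the integrins, ITGB8 was higher and 0 of 12 were lower by limma (2 higher and 2 lower at an unadjusted p under 0.05), with a median of 0.04. The share called was 8.33%, against 3.32% of all genes. ITGB8 (chromosome 7, 20330702 to 20415754, plus strand) encodes the beta 8 subunit, which pairs with the alpha V subunit and is known for releasing active TGF-beta from its latent complex. Its normalized counts were 133, 165 and 146 with siNT, and 241, 253 and 278 with siMNX1. Each siMNX1 library was well above each siNT library, and ITGB8 rose 1.74-fold from 148 ± 16.0 to 257 ± 19.0 (SD, n = 3; limma log2 fold change 0.80, SE 0.121, adjusted p = 0.00855). The call was kept with any single library left out (adjusted p from 0.0178 to 0.0441). ITGB8-AS1, on the opposite strand, shares 98 exonic bases (0.647% of the ITGB8 exons) and was low at 12.2 ± 0.670 and 21.1 ± 2.29 (limma log2 fold change 0.74, adjusted p = 0.207).

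ITGB1, the common partner of most alpha subunits among the members, had the highest level per kilobase of all 37. It had 8943, 9299.6 and 8730.0 with siNT and 9976, 10437 and 9841 in siMNX1. All siMNX1 libraries were above all siNT libraries by a small margin (log2 fold change 0.17, 95% interval 0.07 to 0.27), which was not called (limma, adjusted p = 0.0796, and 0.120 to 0.250 with a library left out). ITGB5, which pairs with the alpha V subunit to bind vitronectin, had 1327, 1282 and 1401 in siNT and 1337, 1682 and 1379 in siMNX1. siMNX1 replicate 2 alone was above the siNT range (limma log2 fold change 0.13, adjusted p = 0.489).

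Of the 9 alpha subunits limma called 0 (0 higher and 2 lower at an unadjusted p under 0.05), and their median log2 fold change was -0.16. The laminin-binding subunits are ITGA3, ITGA6 and ITGA7. ITGA3 had 465, 463 and 408 in siNT and 568, 437 and 558 in siMNX1 (limma log2 fold change 0.22, adjusted p = 0.345). ITGA6 had 379.6, 393 and 395 against 398, 479 and 456, groups that only just do not overlap (limma log2 fold change 0.19, adjusted p = 0.310). ITGA7, best known from muscle, had 425, 468 and 563 against 365, 308 and 432 (limma log2 fold change -0.40, adjusted p = 0.162). These 3 receptors thus had fold changes of unlike sign, none of them called.

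The collagen-binding subunits are ITGA1, ITGA2 and ITGA11. ITGA11 had 323, 286 and 443 in siNT and 117, 249 and 268 in siMNX1, without overlap but with siMNX1 replicate 1 far below the rest (limma log2 fold change -0.79, SE 0.288, adjusted p = 0.178). Without that library its log2 fold change was smaller, at -0.41. ITGA1, which shares 2.56% of its exonic bases with PELO on the same strand, had 657 ± 31.0 and 643 ± 93.6 and turned direction without siMNX1 replicate 3, and ITGA2 was near the floor at 22.3 ± 2.42 and 17.8 ± 8.63.

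The RGD-binding subunit ITGAV had 626, 707 and 486 in siNT and 525, 514 and 424 in siMNX1. The groups overlap (log2 fold change -0.30, 95% interval -0.61 to 0.01, limma, adjusted p = 0.282). ITGA4, of the receptor for fibronectin and VCAM1, had 124 ± 30.8 and 140.5 ± 8.18. ITGAE, the partner of ITGB7 on intraepithelial lymphocytes, had 190.1 ± 14.8 and 170.1 ± 18.0, and 6.41% of its exonic bases are shared with HASPIN on the opposite strand.

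Levels of different genes were set side by side per kilobase of the longest coding transcript, as normalized counts per kilobase. In siNT the order ran from ITGB1 (2376 ± 76.1) through LAMB1 (542 ± 34.1), LAMA5 (324 ± 4.15), ITGB5 (306 ± 13.7), LAMC1 (229 ± 24.6) and COL4A2 (218 ± 12.9) down to LAMA1 (2.73 ± 1.10), COL11A2 (1.70 ± 0.424) and COL25A1 (1.51 ± 0.647). ITGB1 stood above LAMB1, and LAMB1 above LAMA5, in every siNT library. LAMA5 and ITGB5 overlapped, as did LAMC1 and COL4A2, and COL4A1 (122 ± 6.22) and ITGA7 (118 ± 17.0). So did all neighbours from COL4A4 (5.13 ± 0.665) down. Between ITGA7 and LAMA3 the neighbours overlapped too, save COL27A1 over ITGA3, ITGA6 over COL6A1, ITGA1 over ITGAE, COL7A1 over COL5A2 and COL5A2 over COL9A3. With merged exons as the length, COL4A1 stood at rank 15 in place of 7, so its place among the collagens depends on that choice. In siMNX1 LAMA5 was the fifth member of this order, at 261 ± 9.63, behind ITGB5 (335 ± 43.0) and LAMC1 (276 ± 48.5) by the means. LAMC1 and LAMA5 overlapped there, and in siMNX1 replicate 3 LAMC1 (221) was below LAMA5. ITGB8 stood at 16.9 ± 1.83 and 29.4 ± 2.17 per kilobase, or 0.626% ± 0.0570 and 0.972% ± 0.0921 of the 3 beta subunits, of which ITGB1 made up 88.0% ± 0.745 and 88.0% ± 0.930.

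**Figure D3:**
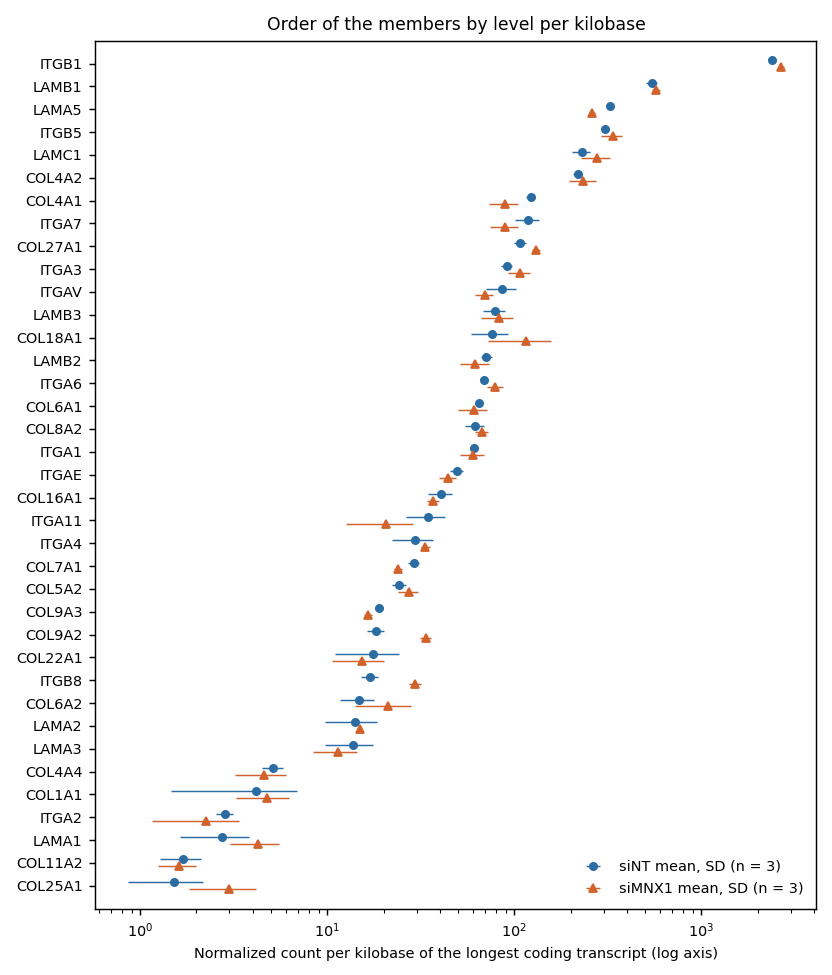
Mean level per kilobase of the longest coding transcript (x axis, log scale) of the 37 members in siNT (circles) and siMNX1 (triangles), with the SD over 3 libraries as bars, ordered by siNT. ITGB1 heads the order at 2376 and 2665. The SD bars of the groups stay apart for COL9A2, ITGB8, LAMA5 and COL4A1, among others. Those of ITGA11 and COL18A1 overlap, though their means differ.

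Chains that share a trimer or dimer were then compared within each library as a ratio of their normalized counts, for 7 pairs chosen after their values were known. COL9A2 over COL9A3 was 1.18, 1.16 and 0.988 in siNT and 2.29, 2.33 and 2.39 in siMNX1. ITGB8 over ITGAV was 0.212, 0.233 and 0.301 in siNT and 0.459, 0.493 and 0.656 in siMNX1. LAMA5 over LAMB1 was 1.16, 1.28 and 1.12 in siNT and 0.914, 0.870 and 0.933 in siMNX1. These ratios did not overlap between the groups, and in the first and second pair the mean ratio was higher in siMNX1 by 1.08 and 1.11 on the log2 scale, while in the third the log2 difference was -0.39. COL4A1 over COL4A2 was 0.512, 0.570 and 0.630 in siNT and 0.395, 0.435 and 0.335 in siMNX1, and LAMA5 over LAMC1 was 2.00, 2.32 and 1.87 against 1.24, 1.21 and 1.77. Both were lower in every siMNX1 library, with log2 differences of -0.56 and -0.57. Each of these 5 ratios gave an exact two-sided permutation p of 0.1, the smallest that 3 against 3 libraries allow (0.140 adjusted by Benjamini-Hochberg over the 7 ratios). Their numerators COL9A2, ITGB8, LAMA5 and COL4A1 did not overlap between the groups by themselves, so these 5 ratios are not independent of those results. COL6A2 over COL6A1 (exact permutation p = 0.3) and ITGB5 over ITGAV (exact permutation p = 0.200) overlapped between the groups.

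**Figure D4:**
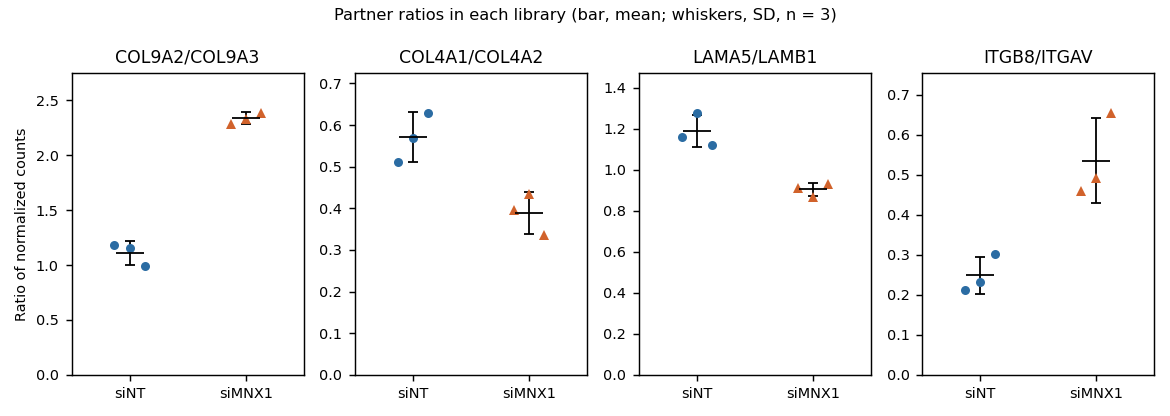
Ratio of normalized counts of 4 partner pairs (y axis, linear from 0) in each siNT (circles) and siMNX1 (triangles) library, with mean and SD (n = 3). The siMNX1 libraries lie above the siNT libraries for COL9A2/COL9A3 (2.34 against 1.11 on average) and ITGB8/ITGAV (0.536 against 0.249), and below them for COL4A1/COL4A2 (0.388 against 0.571) and LAMA5/LAMB1 (0.905 against 1.19).

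The spread between libraries differed widely among the members. The median within-group SD on the log2 scale was 0.39 for the 9 members with a mean under 100 and 0.17 for the other 28, against 0.34 and 0.10 for all genes at those levels. COL1A1 (0.699), COL25A1 (0.578), ITGA11 (0.521), COL22A1 (0.514), ITGA2 (0.497), COL18A1 (0.492) and LAMA1 (0.492) spread most, and LAMA5 (0.040), ITGB1 (0.045) and COL9A3 (0.046) least. COL25A1, whose fold change was larger than those of the called members, was among those of large spread.

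Genes around the members, from 6 lists of matrix and adhesion genes, were also read from the same fit. Beside the counts below, 1.99% of all genes were called higher and 1.33% lower. At an unadjusted p under 0.05 (limma), 9.81% of all genes were higher and 8.56% lower. Of 27 measured genes that modify, fold, export or cross-link collagen (of 33 listed), 1 was higher and 0 lower (unadjusted p under 0.05: 4 and 1, limma), and the list's median log2 fold change was 0.03 beside 0.00 for all genes. It was LOXL3, a lysyl oxidase-like enzyme that cross-links collagen, which rose from 1154, 1042 and 969 to 1615, 1453 and 1690.4 (limma log2 fold change 0.59, adjusted p = 0.00510). Among the other basement membrane genes, the netrin gene NTN1 rose from 1628 ± 32.5 to 2005 ± 144 (limma log2 fold change 0.30, adjusted p = 0.0347). The NTN1 call ended with any library left out (adjusted p from 0.0518 to 0.122).

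Of 13 measured other matrix receptors and integrin partners (of 16), 2 were higher and 1 lower (unadjusted p under 0.05: 3 and 2, limma), with a median of 0.02. BCAM, the Lutheran glycoprotein, is a receptor for the LAMA5 chain, and it rose while LAMA5 fell. It had 3261, 3263 and 3236 in siNT and 5183, 5003 and 5485 in siMNX1 (limma log2 fold change 0.68, SE 0.0484, adjusted p = 0.000108), a call kept with any library left out. The hyaluronan receptor CD44 rose from 1911 ± 126 to 2576 ± 246 (limma log2 fold change 0.43, adjusted p = 0.0204), a call that ended without siNT replicate 1 or 3 or siMNX1 replicate 3 (adjusted p up to 0.102). The tetraspanin CD9, which associates with integrins, fell from 1081 ± 24.3 to 827 ± 48.6 (limma log2 fold change -0.39, adjusted p = 0.0148), a call that ended without siNT replicate 1, 2 or 3 (adjusted p up to 0.0704).

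The intracellular partners gave no call. Of 39 measured genes of the integrin adhesion machinery (of 43), among them talins, kindlins, vinculin, paxillin and focal adhesion kinase, limma called 0 (4 higher and 3 lower at an unadjusted p under 0.05), with a median of -0.05. Those of highest normalized count were ACTN4, which encodes an alpha-actinin, at 10249.9 ± 509 and 10288 ± 279.8, and the docking protein gene BCAR1 at 4423 ± 182 and 4282 ± 131. Of 17 measured matrix proteases and inhibitors (of 26) limma called 0 as well (3 higher and 2 lower unadjusted), with a median of 0.02. MMP15, a membrane-bound metalloproteinase, had 2982 ± 73.5 and 2785 ± 107, and the sheddase ADAM10 had 1969 ± 71.8 and 2158 ± 129.6. Of 10 measured integrin ligands outside the collagen and laminin families (of 20), 1 was higher and 1 lower (unadjusted p under 0.05: 1 and 2, limma), with a median of -0.24. FN1, which encodes fibronectin, the ligand of several integrins with ITGAV or ITGA4, rose from 627, 736 and 432 to 2783, 2625 and 2326 (limma log2 fold change 2.14, adjusted p = 0.000185). TNR, which encodes tenascin-R, fell from 774 ± 42.8 to 606 ± 42.9 (limma log2 fold change -0.35, adjusted p = 0.0440), a call that ended with any library left out (adjusted p from 0.0600 to 0.169).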

How the data were processed

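The samples are 6 RNA-seq libraries of EndoC-βH1 cells, 3 per siRNA. Each library used 5 ng of RNA and the Ovation Solo kit, with AnyDeplete to remove ribosomal RNA, per the labels' protocols. The authors deposited normalized counts in a single table, and this signal has decimals and is never negative. The submitters' processing notes list STAR 2.7.6a and RSEM 1.3.1, R 3.6.3 and DESeq2 1.26.0 (DESeq is also listed), and the build GRCh38, without saying what each did. The sources used here name no gene annotation, filter or strand setting. Whole reads could not be recovered, since the share of low values (under 10) within 0.02 of a whole multiple of a library's step was 25.8% to 47.4%. No count model was therefore used. No pair of libraries shared a value above 0.

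The group effect on log2(value + 1) was fitted over all 16792 genes with limma 3.58.1 in R 4.3.3. The model used a variance trend, Benjamini-Hochberg adjustment and a threshold of 0.05. A minimum mean of 5 removed no gene (the lowest mean was 6.57), so all 37 members passed it. Positions and transcript lengths came from GENCODE 29 (GRCh38), and sequences from RefSeq (GRCh38.p14). Alternatives were other pseudocounts, filters and scalings (TMM and equal totals), no variance trend, a robust variance model, a replicate block and each library left out.

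The rule for named genes took MNX1, the called members, in each family the 5 of highest mean and the largest rise and fall, and their partner chains. Of each other list it took up to 4 called genes or else the 2 most abundant. The remaining members are given so that all 37 are accounted for. A result of the list of other basement membrane genes, and that list's counts, are not reported here. The members and lists were chosen with earlier results of these data known.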

Additional observations from a re-analysis of the deposited data

How the results depend on the processing

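Scaling, pseudocount, filter and a robust variance model left the calls of ITGB8, COL9A2 and LAMA5 in place, and the median log2 fold change of all genes was 0.00 in each. Without a variance trend 191 of all genes were called in place of 558, and 0 members were lower. With a library left out, 198 to 436 genes were called, members higher numbered 1 to 3, members lower 0 to 2, and members called with at least a 1.5-fold change 1 to 4. The counts of 3, 2 and 4 came without siMNX1 replicate 2, which added COL18A1 and COL4A1. No pairing of the libraries by replicate number was detected. Deviations of same-numbered libraries correlated at -0.01, -0.01 and -0.04, and no siNT library correlated above 0.03 with any siMNX1 library. These correlations cannot show whether same-numbered libraries were prepared together. With the replicate block 237 genes were called, 1 member was higher and 1 had at least a 1.5-fold change, as COL9A2 was not called (adjusted p = 0.0732). Of 222 fold changes with a library left out, 12 turned sign, all of members not called. Over the 6 cases their log2 fold changes ran from -0.25 to 0.08 for COL11A2, from -0.06 to 0.80 for COL1A1, from -0.49 to 0.08 for COL22A1, from 0.00 to 0.23 for COL4A2, from -0.38 to 0.07 for COL4A4, from 0.00 to 0.37 for LAMA2, from -0.09 to 0.19 for LAMB3 and from -0.15 to 0.06 for ITGA1. The cause of these changes was not tested. With merged exon lengths, chosen after seeing the data, ITGB1, LAMB1 and LAMA5 kept the top ranks per kilobase in siNT, ITGB5 and LAMC1 exchanged ranks 4 and 5, and COL4A1 went from 7 to 15. Depth is unknown, which limits the members of low level.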
